A study of Mus musculus with 2 samples.

Results

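The genes described here are the 10 VEGF and angiopoietin ligands and receptors Vegfa, Vegfb, Vegfc, Pgf, Angpt1, Angpt2, Flt1, Kdr, Nrp1 and Tek, out of 31053 genes in the count matrices. They were chosen by name and function, 6 as ligands and 4 as receptors. The ligands were read in adipocyte nuclei, defined as barcodes with at least 4 UMIs of Pparg, Acsl1, Pde3b and Ppara together and under 5% mitochondrially encoded UMIs. The receptors were read in endothelial barcodes, with at least 3 UMIs of Ptprb, Cyyr1, Cdh5 and Adgrl4 together and under 20% mitochondrially encoded UMIs. A UMI is a molecular tag that counts each captured RNA molecule once. The tissue was brown adipose tissue, a heat-producing fat, of C57BL/6 mice, and the assay was RNA sequencing of single DAPI-positive nuclei. In the TN group mice were housed at thermoneutrality, where no extra heat production is needed. In the 1cyc group tissue was taken 4 days after a transient, acute exposure to cold. Each group was a pool of nuclei from 5 mice sequenced as 1 library. No difference between the libraries has a replicate check, no p-value is given, and the effect of the condition cannot be told apart from that of the library.

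VEGF-A is the main growth factor for blood vessel endothelium. It signals through the receptor tyrosine kinase KDR (VEGFR2), while FLT1 (VEGFR1) binds it tightly with weaker signalling and also exists as a soluble decoy, and NRP1 is a co-receptor. VEGF-B and PlGF bind FLT1, and VEGF-C acts mainly on lymphatic endothelium through FLT4. Angiopoietin 1, made by cells around vessels, activates the endothelial receptor TEK (TIE2) and keeps vessels stable, and angiopoietin 2 is its context-dependent antagonist. Brown fat is densely vascularised, and its adipocytes are a known source of VEGF-A in the cold. The 3′ counts used here do not separate splice forms, so soluble and membrane-bound Flt1 are counted together.

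There were 2551 TN and 4321 1cyc barcodes, with 2745808 and 2469900 UMIs in all. The median depth was 800 UMIs in TN against 378 in 1cyc, the lowest deposited barcode 500 against 262, and the median mitochondrial share was 4.76% and 22.1%. The libraries shared 6 barcode sequences. The adipocyte gate kept 1081 TN and 912 1cyc nuclei with 1193078 and 989852 UMIs and medians of 873 and 966.5. The endothelial gate kept 158 and 34 barcodes with 234000 and 38129 UMIs and medians of 1244 and 945. Markers outside the gates followed the labels. The adipocyte list (Adipoq, Plin1, Cidea, Esrrg, Acaca, Ghr) summed to 9184 CPM (TN) and 9340 CPM (1cyc) in adipocyte nuclei, against 1325 and 1442 CPM in endothelial barcodes. CPM are counts per 1e6 UMIs of the class. The endothelial list (Pecam1, Erg, Emcn, Tie1, Shank3, Mecom) summed to 3637 and 4904 CPM in endothelial barcodes, against 278 and 144 CPM in adipocyte nuclei. All 4 lymphatic endothelial markers (Prox1, Lyve1, Mmrn1, Reln) were at 0 in the endothelial barcodes of both libraries. Haemoglobin genes were higher in TN, at 36550 CPM in adipocyte nuclei and 24500 CPM in endothelial barcodes, against 2732 and 446 CPM in 1cyc.

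The gates were not exclusive. In TN 50 adipocyte nuclei and in 1cyc 20 passed the marker gate of another class, 25 and 7 of them the whole endothelial gate. Of the endothelial barcodes, 65 of 158 in TN and 11 of 34 in 1cyc held at least 4 adipocyte-gate UMIs. Pparg, the adipogenic nuclear receptor, was the adipocyte-gate gene with most UMIs in endothelial barcodes, at 1944 CPM (455 UMIs) in TN and 1600 CPM (61 UMIs) in 1cyc. Adipoq, the adipocyte hormone gene, stood there at 12.8 CPM (3 UMIs) and 0 UMIs, and Plin1, which coats the lipid droplet, at 17.1 CPM (4 UMIs) and 52.5 CPM (2 UMIs). The main results are therefore also given without the barcodes that passed another gate, a step chosen for class ratios, subsets and shares after the data were seen. Values in parentheses after a level, ratio or share are exact 95% intervals for counting error only.

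The promoters of Vegfa, a ligand found in adipocyte nuclei, and of the 3 receptors that marked endothelial barcodes are shown for their contrast in cell type. They are the 250 bases before the RefSeq transcription start on GRCm38.p6, 5′ to 3′ on the gene's strand. Their positions are chr17:46032378-46032627 for Vegfa, chr5:147726012-147726261 for Flt1 and chr5:75978456-75978705 for Kdr, all on the minus strand, and chr4:94739039-94739288 on the plus strand for Tek. Capitals mark matches on either strand to ACGTG or GCGTG (hypoxia response core), AAGGTCA (oestrogen-related receptor half-site) or CCGGAA (ETS core).
Vegfa: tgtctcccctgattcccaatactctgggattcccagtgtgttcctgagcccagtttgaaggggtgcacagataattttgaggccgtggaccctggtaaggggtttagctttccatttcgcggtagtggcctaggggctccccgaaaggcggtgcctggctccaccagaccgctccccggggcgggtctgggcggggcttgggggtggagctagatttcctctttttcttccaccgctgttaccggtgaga
Flt1: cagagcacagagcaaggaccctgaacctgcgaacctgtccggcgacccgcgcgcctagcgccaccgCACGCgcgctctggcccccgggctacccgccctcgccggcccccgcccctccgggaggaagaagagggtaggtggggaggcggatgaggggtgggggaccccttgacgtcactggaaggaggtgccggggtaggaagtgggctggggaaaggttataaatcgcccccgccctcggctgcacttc
Kdr: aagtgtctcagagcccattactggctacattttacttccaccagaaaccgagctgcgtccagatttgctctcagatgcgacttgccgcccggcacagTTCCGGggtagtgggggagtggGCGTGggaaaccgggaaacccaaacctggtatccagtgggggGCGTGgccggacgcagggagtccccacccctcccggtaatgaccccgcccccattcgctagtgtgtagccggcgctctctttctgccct
Tek: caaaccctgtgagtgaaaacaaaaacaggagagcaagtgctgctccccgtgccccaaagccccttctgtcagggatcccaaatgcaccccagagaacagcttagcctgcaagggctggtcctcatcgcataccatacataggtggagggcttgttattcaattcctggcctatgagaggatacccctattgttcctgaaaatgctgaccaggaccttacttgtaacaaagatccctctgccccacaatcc
Flt1 held 1 GCGTG match, Kdr 2 GCGTG matches and 1 CCGGAA match, and the Vegfa and Tek windows none. GCGTG was found in 28.2% of 32851 RefSeq promoter windows of this length, CCGGAA in 12.0%, ACGTG in 16.6% and AAGGTCA in 4.08%. A second annotated Vegfa start, with its window at chr17:46025164-46025413, held 1 ACGTG and 1 GCGTG match. A match describes these letters only and is not a binding site, and the windows leave out the rest of each promoter.

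Among the ligands, Vegfa was higher and Angpt1 lower in adipocyte nuclei of the 1cyc library. Vegfa (chr17:46016993-46032369, minus strand, mm10), the main endothelial growth factor, had 999 UMIs in TN and 1570 in 1cyc, or 837 CPM (786 to 891) against 1586 CPM (1509 to 1667). The intervals did not overlap and the ratio 1cyc/TN was 1.89 (1.75 to 2.05). Angpt1 (chr15:42424723-42676977, minus strand), the stabilising TEK ligand, had 1349 and 946 UMIs, or 1131 CPM (1071 to 1193) against 956 CPM (896 to 1019). Its ratio was 0.845 (0.777 to 0.919), a smaller difference in the opposite direction. Without barcodes of at least 5% haemoglobin UMIs the ratio was 1.83 (1.69 to 1.98) for Vegfa and 0.815 (0.749 to 0.886) for Angpt1. Gm17473 lies on the other strand within the Angpt1 span, and whether the authors' counting used strand is not given in the sources used here.

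Of 3643 genes with at least 100 UMIs in adipocyte nuclei, 312 (8.56%) had a ratio of 1.5 or more and 182 (5.00%) were lower by as much. Of the 4 members measured at that depth, Vegfa was in the first group and Flt1 in the second, while Angpt1 and Nrp1 were in neither. The ratio of Vegfa was reached or passed by 76 genes, itself included, whereas 583 genes had a ratio at or under that of Angpt1. The median log2 ratio of all measured genes was 0.09.

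The other 4 ligands were near the limit of detection in adipocyte nuclei. Vegfb (chr19:6982473-6987651, minus strand), an FLT1 ligand linked to fatty acid use, had 29 and 19 UMIs, 24.3 and 19.2 CPM, with a ratio of 0.790 (0.418 to 1.46), which includes no difference. Vegfc (chr8:54077606-54187096, plus strand), the lymphatic growth factor, had 16 UMIs (13.4 CPM) in TN and none in 1cyc. Against a floor of 3 counts in the library at 0 this was at least 4.42-fold lower in 1cyc, but barcodes that passed no other gate held 8 of the 16 TN UMIs. In them the bound on the ratio was at most 0.428. Angpt2 (chr8:18690263-18741562, minus strand), the TEK antagonist made mostly by activated endothelium, had 3 UMIs and 1 UMI, and the reads of Mcph1 on the other strand could not be separated if strand was not used. Pgf (chr12:85166635-85177790, minus strand), the placental growth factor gene, had 0 UMIs in both libraries, which allows up to 2.51 CPM in TN and 3.03 CPM in 1cyc.

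**Figure D1:**
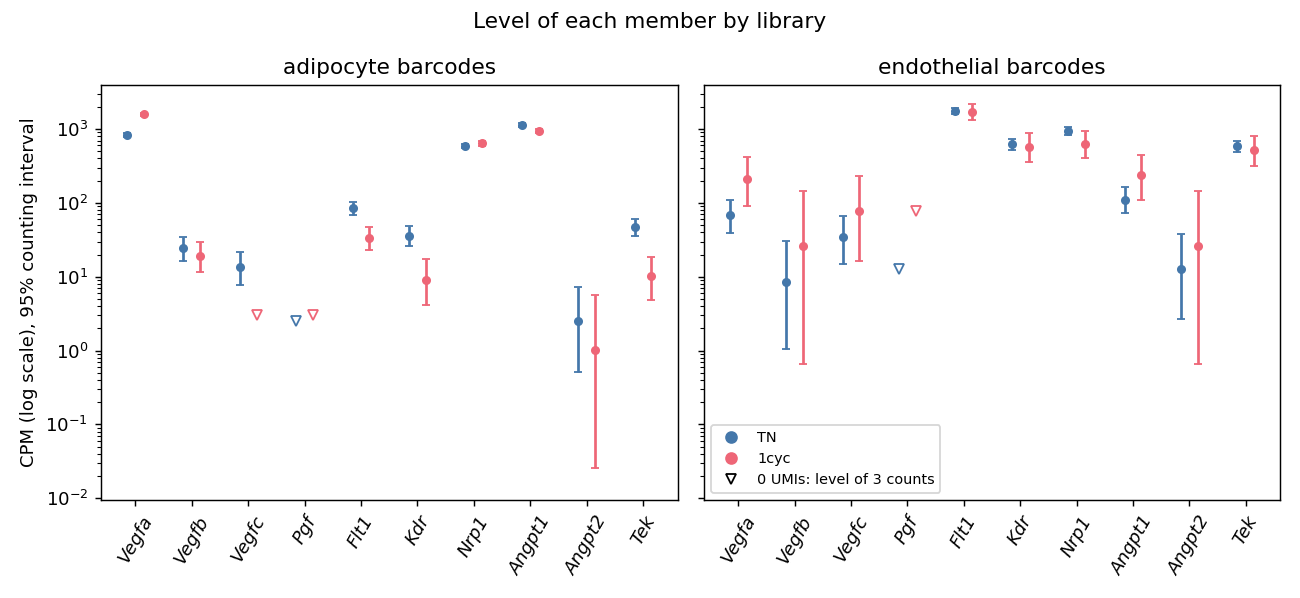
Level in CPM (log axis) of each member in adipocyte nuclei and endothelial barcodes of the TN and 1cyc libraries, with exact 95% Poisson intervals; open triangles mark 0 UMIs, drawn at the level of 3 counts. In adipocyte nuclei Vegfa stands at 837 CPM (TN) and 1586 CPM (1cyc), while Flt1 in endothelial barcodes stands at 1761 and 1731 CPM.

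The difference in Vegfa was spread over nuclei. Each adipocyte nucleus was thinned to 500 UMIs so that depth could not set the share, which left out no TN and 125 1cyc nuclei. At that depth a Vegfa UMI was found in 32.4% (29.6 to 35.3) of nuclei in TN against 52.9% (49.3 to 56.4) in 1cyc, and without thinning in 51.6% and 70.3%. Without barcodes in another gate the thinned shares were 35.8% (32.9 to 38.8) and 54.0% (50.4 to 57.5). The mean was 0.410 UMIs per nucleus in TN and 0.798 in 1cyc. Nuclei with 3 or more Vegfa UMIs made up 1.11% and 5.97%, and the highest nucleus held 4 and 6. Angpt1 went the other way, with a UMI in 41.3% (38.3 to 44.3) of TN and 34.1% (30.7 to 37.5) of 1cyc nuclei thinned to 500 UMIs, and 58.8% and 50.9% unthinned. Without barcodes in another gate, again in the separate thinning, it was 43.8% (40.8 to 46.9) and 35.6% (32.2 to 39.1). For comparison, Vegfa was also counted in endothelial barcodes, with both classes thinned to 300 UMIs. This does not measure free RNA alone, because 65 of 158 TN and 11 of 34 1cyc endothelial barcodes held at least 4 adipocyte-gate UMIs. There 2.53% (0.694 to 6.35) of TN and 2.94% (0.0744 to 15.3) of 1cyc endothelial barcodes held a Vegfa UMI, against 23.0% (20.6 to 25.7) and 37.2% (34.0 to 40.4) of adipocyte nuclei.

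**Figure D2:**
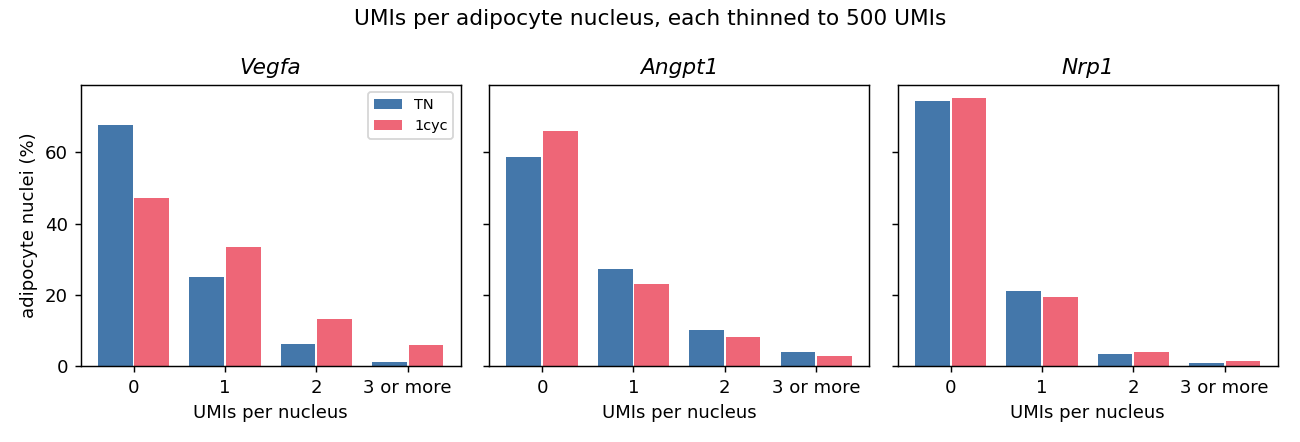
Percent of adipocyte nuclei with 0, 1, 2 or at least 3 UMIs of Vegfa, Angpt1 and Nrp1 after thinning each nucleus to 500 UMIs (1081 TN and 787 1cyc nuclei). For Vegfa the share at 0 is 67.6% in TN and 47.1% in 1cyc, and for Nrp1 it is 74.5% and 75.2%.

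Vegfa was higher in 1cyc in 10 of the 11 subsets of adipocyte nuclei compared. The subsets are overlapping splits of the same nuclei, so they are not separate checks. Nuclei with a Ucp1 UMI (the uncoupling protein that makes heat) numbered 108 in TN and 177 in 1cyc, and held Vegfa at 1063 and 1781 CPM, a ratio of 1.67 (1.36 to 2.08). In nuclei without one it was 815 and 1530 CPM, a ratio of 1.88 (1.72 to 2.05). Vegfa was thus higher beside Ucp1 within each library, by 1.30 (1.06 to 1.59) in TN and 1.16 (1.04 to 1.31) in 1cyc. In nuclei with at least 2 UMIs of the lipogenic genes Acly, Fasn, Scd1 and Elovl6, which build fatty acids, the ratio was 1.67 (1.43 to 1.95), and in the others 1.88 (1.70 to 2.07). The ratio was 1.88, 1.91 and 1.79 in nuclei with a mitochondrial share under 1.5%, of 1.5 to 3% and of 3 to 5%, and 1.87 and 1.99 in those of at least and under 800 UMIs. Without barcodes in another gate the same 10 subsets had ratios from 1.61 to 1.97.

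The exception was the nuclei with at least 2 UMIs of Nnat and Slc7a10 (Slc7a10 is a white adipocyte marker), 99 in TN and 27 in 1cyc. They held 130 and 29 Vegfa UMIs, or 816 CPM (681 to 968) and 673 CPM (451 to 966), with overlapping intervals, at median depths of 1450 and 1335 UMIs. The ratio was 0.825 (0.532 to 1.24), against 1.94 (1.78 to 2.11) in the remaining nuclei, and these 2 intervals did not overlap. The level in this subset relative to the other nuclei was 0.970 (0.800 to 1.17) in TN and 0.413 (0.276 to 0.596) in 1cyc. Angpt1 in the same nuclei was at 991 and 1160 CPM, a ratio of 1.17 (0.834 to 1.62).

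The Angpt1 ratio was lowest in lipogenic and Ucp1-positive nuclei. In nuclei with at least 2 lipogenic UMIs, 155 in TN and 312 in 1cyc, it was at 1434 CPM (1277 to 1605) and 893 CPM (804 to 989), a ratio of 0.622 (0.533 to 0.727). In the remaining nuclei it was at 1066 and 1001 CPM, with a ratio of 0.939 (0.847 to 1.04) that includes no difference. Without barcodes in another gate these ratios were 0.607 (0.519 to 0.709) and 0.886 (0.798 to 0.982), and the second then excludes no difference. With a Ucp1 UMI the ratio was 0.631 (0.515 to 0.775), and without one 0.869 (0.791 to 0.954). Within TN, Ucp1-positive nuclei had 1.46 times (1.23 to 1.71) the Angpt1 level of the others, and within 1cyc 1.06 times (0.906 to 1.23). The median depth of Ucp1-positive nuclei was 870.5 UMIs in TN and 1129 in 1cyc, and lipogenic nuclei had 1117 and 1238. The Angpt1 ratio was 0.866 (0.786 to 0.952) at 800 UMIs or more and 0.788 (0.657 to 0.942) below. By mitochondrial share it was 0.951 (0.824 to 1.10) under 1.5%, 0.727 (0.630 to 0.838) at 1.5 to 3% and 0.841 (0.703 to 1.00) at 3 to 5%, so the interval includes no difference in the first.

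**Figure D3:**
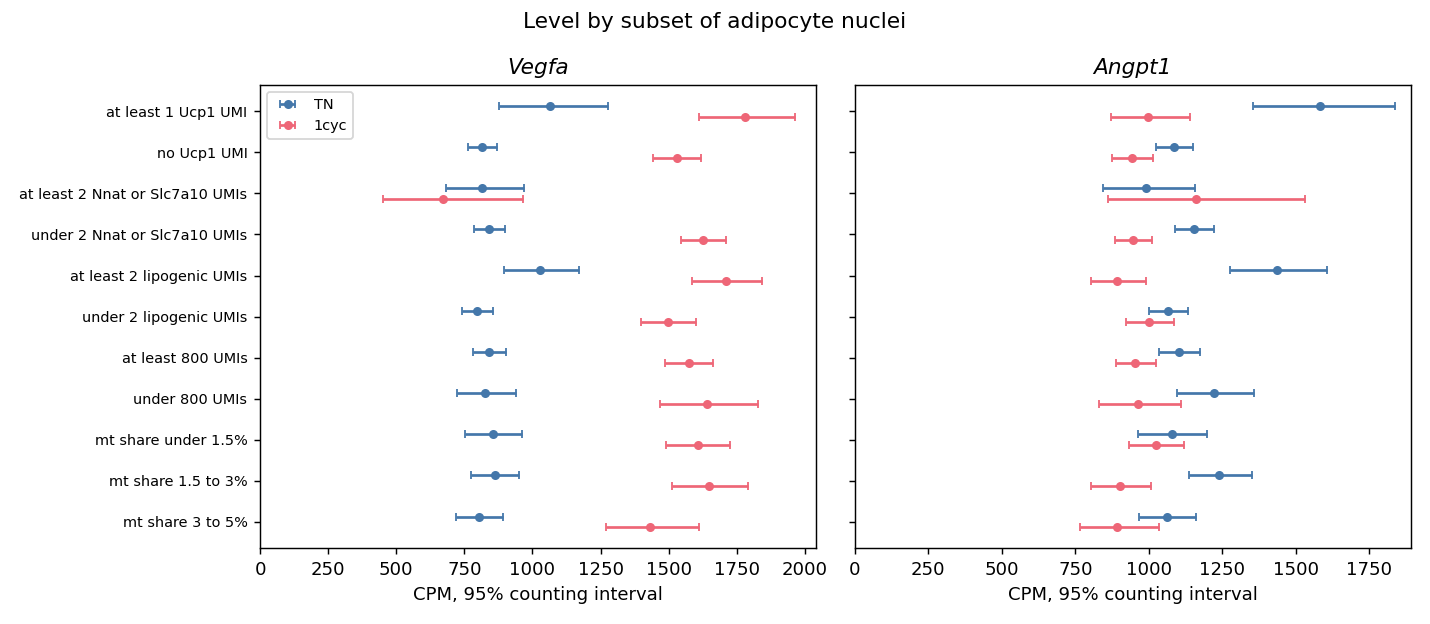
Vegfa and Angpt1 level in CPM with exact 95% Poisson intervals in subsets of adipocyte nuclei, TN and 1cyc. The TN and 1cyc intervals of Vegfa overlap only in nuclei with at least 2 Nnat or Slc7a10 UMIs (816 and 673 CPM).

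Among the receptors, Flt1, Kdr and Tek marked endothelial barcodes, where their levels differed between the libraries by less than the counting intervals. Flt1 (chr5:147561604-147726011, minus strand), the VEGF-A and VEGF-B receptor, had 412 and 66 UMIs, or 1761 CPM (1595 to 1939) against 1731 CPM (1339 to 2202), a ratio of 0.983 (0.746 to 1.28). Kdr (chr5:75932827-75978458, minus strand), the main signalling VEGF receptor, had 146 and 22 UMIs, or 624 and 577 CPM, a ratio of 0.925 (0.562 to 1.45). Tek (chr4:94739289-94874976, plus strand), the angiopoietin receptor, had 137 and 20 UMIs, or 585 and 525 CPM, a ratio of 0.896 (0.531 to 1.44). With 34 barcodes in 1cyc, differences inside these intervals were not detectable. With TMM scaling, which moved the median log2 ratio of genes in this class from 0.02 to -0.39, Flt1 had a ratio of 0.742 (0.563 to 0.964). Nrp1 (chr8:128358604-128503363, plus strand), the co-receptor, had 222 and 24 UMIs, or 949 CPM (828 to 1082) and 629 CPM (403 to 937), a ratio of 0.663 (0.416 to 1.01). Its direction turned with a mitochondrial limit of 5%, at 1.10 (0.594 to 1.91), and its interval excluded 1 in 4 of 18 alternatives. The lowest of these 4 was TMM scaling, at 0.501 (0.314 to 0.765).

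Of 2658 genes with at least 20 UMIs in endothelial barcodes, 512 (19.3%) had a ratio of 1.5 or more and 643 (24.2%) were lower by as much. Of the 6 members measured there, Nrp1 was on the lower side and Vegfa and Angpt1 on the higher, counts too close to those percentages to set the members apart. The median log2 ratio of all measured genes was -0.01. Without barcodes that passed another gate, 85 TN and 22 1cyc endothelial barcodes remained. There the ratio was 0.757 (0.501 to 1.11) for Flt1, 0.872 (0.443 to 1.59) for Kdr, 1.06 (0.548 to 1.91) for Tek and 0.647 (0.342 to 1.14) for Nrp1.

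The receptors split by class, by a factor that depended on the barcodes in another gate. Flt1 was 20.8 times (16.7 to 26.1) as high in endothelial barcodes as in adipocyte nuclei in TN and 51.9 times (33.7 to 81.4) in 1cyc. For Kdr the factor was 17.3 (12.2 to 24.9) and 63.5 (28.1 to 157), and for Tek 12.5 (9.08 to 17.3) and 51.9 (23.2 to 124). The endothelial marker list, measured the same way, gave 13.1 (11.5 to 14.9) and 33.9 (27.2 to 42.5). Without barcodes in another gate, a step that removes adipocyte nuclei with endothelial gate genes, the factor for Flt1 was 173 (96.7 to 340) in TN and 106 (53.8 to 220) in 1cyc, the reverse order of the libraries. Kdr then gave 189 (70.6 to 712) and 289 (65.3 to 2634), Tek 67.0 (34.1 to 146) and 104 (37.4 to 329), and the endothelial marker list 26.7 (22.2 to 32.2) and 52.1 (40.3 to 67.3). The 3 receptors were thus higher in endothelial barcodes either way, while the size of the factor was not stable. Nrp1 was different. In adipocyte nuclei it was at 593 CPM (707 UMIs) in TN, against 649 CPM (642 UMIs) in 1cyc, and its endothelial level was 1.60 times (1.37 to 1.86) and 0.970 times (0.617 to 1.46) that, or 1.68 times (1.35 to 2.07) and 0.998 times (0.542 to 1.69) without barcodes in another gate. Over 4094 genes with at least 100 UMIs in both classes and libraries together, 10.5% were at least 2-fold higher in endothelial barcodes in both libraries and 21.5% at least 2-fold higher in adipocyte nuclei. Flt1, Kdr and Tek were in the first set and Vegfa and Angpt1 in the second. A gene can pass this minimum through the class where it is high, so nothing is read from these counts.

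In adipocyte nuclei Nrp1 differed between the libraries by less than the counting interval, with a ratio of 1.09 (0.982 to 1.22) and a UMI in 25.5% (23.0 to 28.2) and 24.8% (21.8 to 27.9) of nuclei thinned to 500 UMIs (38.9% and 42.2% unthinned). It was lower in nuclei with at least 2 Nnat or Slc7a10 UMIs than in the rest, at 0.536 times (0.399 to 0.708) their level in TN and 0.383 times (0.190 to 0.690) in 1cyc. Its ratio between libraries was 1.36 (1.12 to 1.67) at a mitochondrial share under 1.5%, 1.02 (0.848 to 1.23) at 1.5 to 3% and 1.05 (0.853 to 1.29) at 3 to 5%. By depth it went both ways, at 1.18 (1.05 to 1.33) in nuclei of at least 800 UMIs and 0.793 (0.615 to 1.02) below.

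Flt1, Kdr and Tek in the adipocyte gate were lower in 1cyc, and most of their TN UMIs lay in barcodes that other gates also caught. Flt1 had 101 and 33 UMIs there, 84.7 and 33.3 CPM, a ratio of 0.394 (0.257 to 0.589). Kdr had 43 and 9 UMIs, 36.0 and 9.09 CPM, a ratio of 0.252 (0.108 to 0.525). Tek had 56 and 10 UMIs, 46.9 and 10.1 CPM, a ratio of 0.215 (0.0979 to 0.426). Without the barcodes in another gate, Flt1 had 12 and 13 UMIs and a ratio of 1.24 (0.520 to 2.96), Kdr 4 and 2 UMIs and 0.571 (0.0516 to 3.98), and Tek 10 and 6 UMIs and 0.685 (0.205 to 2.08). The 3 intervals then include no difference. With Pparg left out of the gate the Flt1 ratio was 1.07 (0.529 to 2.15). The endothelial marker list in these nuclei went from 278 and 144 CPM to 148 and 121 CPM, with a ratio of 0.817 (0.638 to 1.04). Vegfa at 1.80 (1.66 to 1.95), Angpt1 at 0.798 (0.733 to 0.868) and Nrp1 at 1.09 (0.974 to 1.22) kept their direction without the same barcodes.

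**Figure D4:**
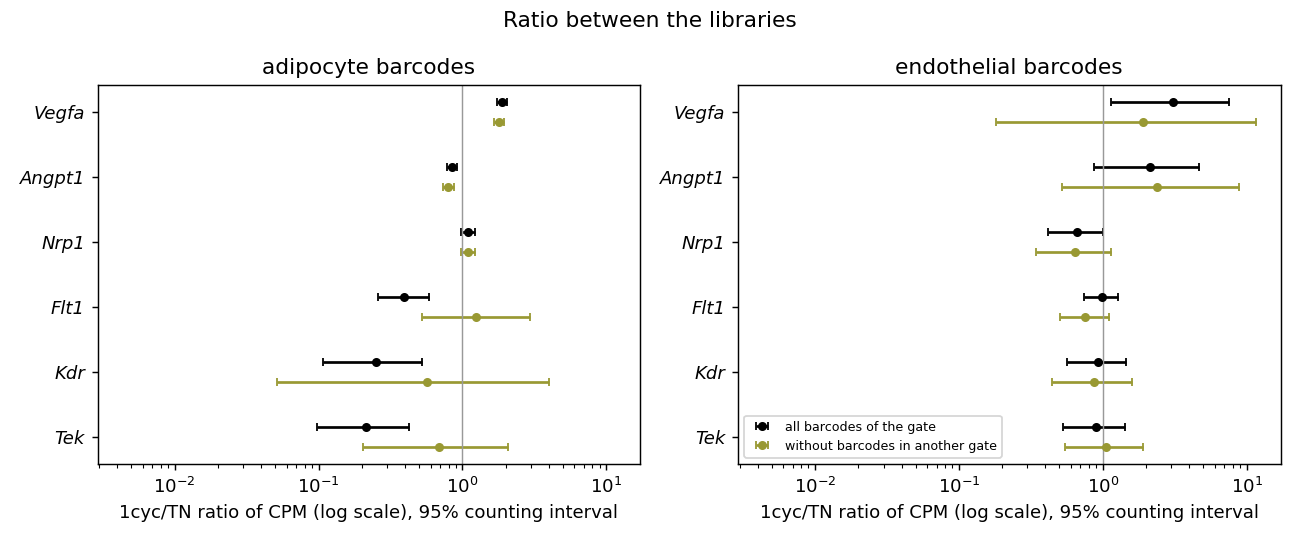
Ratio 1cyc/TN of CPM (log axis) with exact conditional 95% intervals for the 6 members with most UMIs, in all barcodes of a gate and without barcodes that also passed another gate. In the adipocyte gate Vegfa moves from 1.89 to 1.80, whereas Flt1 moves from 0.394 to 1.24.

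Vegfa and Angpt1 in endothelial barcodes were set beside the adipocyte marker list found there. Vegfa had 16 and 8 UMIs there, or 68.4 and 210 CPM, and Angpt1 26 and 9 UMIs, or 111 and 236 CPM. Adipocyte nuclei held Vegfa at 12.2 times (7.50 to 21.5) the endothelial level in TN and 7.56 times (3.83 to 17.5) in 1cyc. For Angpt1 the factor was 10.2 (6.91 to 15.6) and 4.05 (2.12 to 8.88), and for the adipocyte marker list 6.93 (6.19 to 7.79) and 6.47 (4.97 to 8.60). Without barcodes in another gate Vegfa gave 18.5 (7.90 to 57.1) and 17.5 (4.84 to 145), and Angpt1 15.7 (7.92 to 36.3) and 5.24 (2.04 to 19.3). The list then gave 7.82 (6.58 to 9.36) and 9.83 (6.43 to 15.9). In TN the list was relatively more abundant in endothelial barcodes than either ligand, while in 1cyc Angpt1 was relatively more abundant than the list. In both libraries the intervals of the ligands overlapped that of the list, for Vegfa in TN only narrowly. Overlap alone does not show that an order lies within counting error. The ligands were not compared with the list directly, so nothing is read from either order. The ratio between the libraries in endothelial barcodes was 3.07 (1.14 to 7.60) for Vegfa and 2.12 (0.876 to 4.68) for Angpt1, while the list went from 1325 to 1442 CPM. Without barcodes in another gate 5 and 2 Vegfa and 8 and 4 Angpt1 UMIs remained, with ratios of 1.91 (0.181 to 11.6) and 2.38 (0.525 to 8.89). Whether these UMIs came from endothelial nuclei or from free RNA was not tested. Vegfc had 8 and 3 UMIs in endothelial barcodes, Angpt2 3 UMIs and 1, Vegfb 2 and 1, and Pgf 0 in both.

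The 4 smaller classes, each of barcodes in no other gate, showed further sources of ligand. They held 34 TN and 10 1cyc mural barcodes (cells of the vessel wall), 101 and 44 fibroblast or progenitor barcodes, 17 and 16 macrophages, and 42 and 12 skeletal muscle barcodes. Angpt1 was present in mural barcodes at 601 CPM (385 to 895) in TN, against 923 CPM (443 to 1698) in 1cyc, from 24 and 10 UMIs. In fibroblast or progenitor barcodes it stood at 510 CPM (403 to 638) and 481 CPM (311 to 710). Adipocyte nuclei came first in TN with no overlap, and in 1cyc their 956 CPM did not differ beyond counting error from the mural level. Below these, skeletal muscle, endothelial and macrophage barcodes stood at 113, 111 and 82.4 CPM in TN with overlapping intervals.

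Vegfc was highest in mural barcodes, at 175 CPM (70.5 to 361) in TN, against 185 CPM (22.4 to 667) in 1cyc, from 7 and 2 UMIs. Fibroblast or progenitor barcodes had 79.5 CPM (12 UMIs) and 77.0 CPM (4 UMIs), endothelial barcodes 34.2 and 78.7 CPM, and neighbouring intervals overlapped. Vegfa outside adipocytes was highest in skeletal muscle barcodes, at 498 CPM (312 to 754) and 387 CPM (126 to 902). The adipocyte marker list summed to 4708 and 3943 CPM there, most of it from Ghr (2897 CPM in TN) and Esrrg (1449 CPM). The other list genes were lower in TN, with Acaca at 226, Cidea at 113, Adipoq at 22.6 and Plin1 at 0 CPM. The part of adipocyte RNA in the Vegfa level was not tested. Vegfa was at 106 and 38.5 CPM in fibroblast or progenitor barcodes, at 75.2 CPM and 0 in mural barcodes, and at 0 UMIs in the macrophages of both libraries. Pgf had 1 UMI in all classes together, in a TN barcode that passed no gate.

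Tek was the receptor with a second site. Fibroblast or progenitor barcodes held 34 Tek UMIs in TN and 15 in 1cyc, or 225 CPM (156 to 315) and 289 CPM (162 to 476). In the same barcodes Flt1 had 2 UMIs and 0, Kdr 1 and 0, and the endothelial marker list 192 and 154 CPM. In endothelial barcodes, by contrast, Tek at 585 and 525 CPM stood beside 3637 and 4904 CPM of that list. Kdr had 4 UMIs in TN mural barcodes, and Flt1 none in mural, macrophage or skeletal muscle barcodes of either library. Nrp1 was found in every class, from 181 CPM (skeletal muscle) to 949 CPM (endothelial) in TN. After endothelial barcodes the order in TN was macrophage at 604 CPM, adipocyte at 593 CPM, mural at 376 CPM and fibroblast or progenitor at 325 CPM, with skeletal muscle last. Neighbouring intervals in this order overlapped, while that of adipocyte nuclei (550 to 638) overlapped neither the endothelial one nor the fibroblast or progenitor one (240 to 429). In 1cyc all Nrp1 intervals overlapped.

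**Figure D5:**
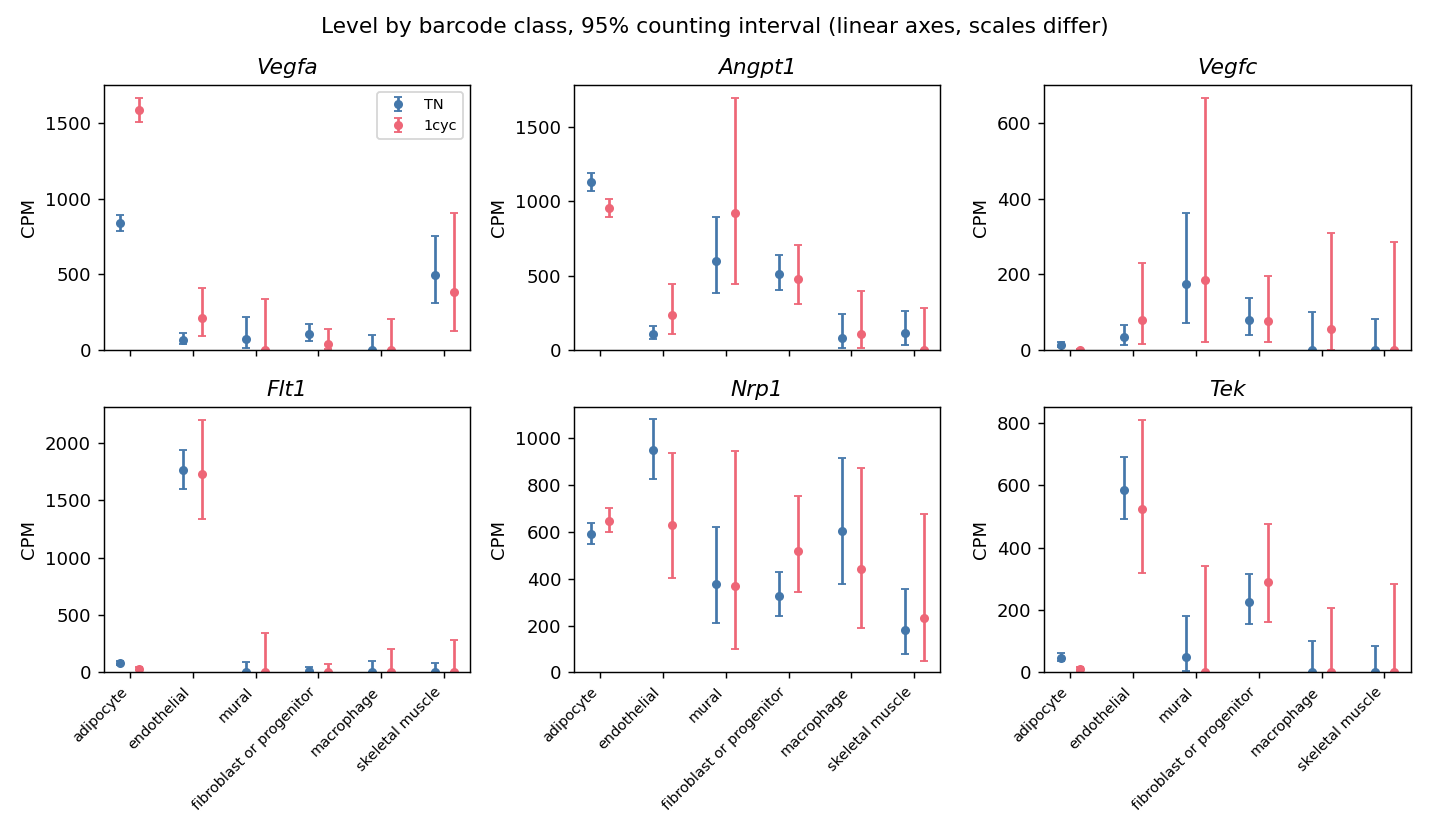
Level in CPM (linear axes that differ by panel) of 3 ligands and 3 receptors in 6 barcode classes of both libraries, with exact 95% Poisson intervals. Flt1 outside endothelial barcodes is highest in the adipocyte gate as drawn, at 84.7 and 33.3 CPM. Without barcodes in another gate that level is 10.9 and 13.5 CPM. Fibroblast or progenitor barcodes, which are in no other gate, hold Flt1 at 13.2 and 0 CPM. Tek has a second level of 225 and 289 CPM in fibroblast or progenitor barcodes, and Nrp1 is present in all 6 classes.

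Genes whose pattern over the 12 class and library profiles was most like a member's were ranked by Pearson's r of log2(CPM + 10) over 4638 genes, as a description. For Vegfa they were Pcx (0.984), which feeds oxaloacetate to the citric acid cycle, Hadhb (0.968) of fatty acid oxidation, Dhrs7b (0.966), Macrod1 (0.966) and Tob1 (0.939). For Angpt1 the values were lower, led by 0610010F05Rik (0.923), Eri3 (0.909) and the adipogenic factor Ebf1 (0.882), then 4930402H24Rik (0.880) and Xpo6 (0.878). For Flt1 they were Cdh5 (0.994), a gene of the gate, Pcdh17 (0.990), Kank3 (0.988), Rassf9 (0.985) and Efnb2 (0.984). For Kdr they were Btnl9 (0.993), Ushbp1 (0.991), Gm12002 (0.990), Ptprb (0.989), also of the gate, and Tie1 (0.982). The profiles share 2 libraries and small classes share low depth.

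Other genes of these pathways were taken from 4 lists and counted where they had at least 50 UMIs in a class. At that depth 11.2% of 5649 genes in adipocyte nuclei passed 1.5-fold in the higher direction and 7.49% in the lower, and in endothelial barcodes 11.6% and 14.0% of 905. Oxygen and coactivator regulators had 8 of 13 genes measured in adipocyte nuclei, 7 of them above 1, as were 60.2% of all genes, and 1 past 1.5-fold in the higher direction, near the share of all genes. Their median log2 ratio was 0.26 against 0.10 for all genes. Esrra, the oestrogen-related receptor of oxidative genes, was at 134 and 223 CPM, a ratio of 1.66 (1.35 to 2.05). The others were within 1.5-fold, with ratios of 1.48 for Ppargc1b and 1.44 for Ppargc1a, which are coactivators of it, 1.15 for Egln1, an oxygen-sensing hydroxylase, 1.08 for Esrrg and 0.868 for Arnt. The hypoxia-inducible factor gene Epas1 was at 184 and 229 CPM, a ratio of 1.24 with a lower bound of 1.03. That ratio was farther from 1 than those of Egln1, Esrrg and Arnt. Hif1a, also a hypoxia-inducible factor gene, was at 63.7 and 65.7 CPM, a ratio of 1.03 (0.729 to 1.45).

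Of 18 other angiogenic factors, 6 were measured in adipocyte nuclei and 2 were at least 1.5-fold lower, against 7.49% of all genes. Their median log2 ratio was -0.31, and the lists were not tested as sets. Igf1, a growth factor, was at 77.9 and 22.2 CPM, a ratio of 0.285 (0.171 to 0.458), and Timp3, which blocks VEGF binding to KDR as well as matrix proteases, at 86.3 and 50.5 CPM, a ratio of 0.585 (0.409 to 0.828). In the same gate the fibroblast or progenitor marker list went from 292 to 154 CPM and the macrophage list from 69.6 to 12.1 CPM. The endothelial list went from 278 to 144 CPM there, and endothelial barcodes held Timp3 at 645 and 472 CPM. The part of RNA from these classes in the 2 ratios was not tested. Of 12 further ligands and receptors only Nrp2, a neuropilin co-receptor, with a ratio of 1.06 (0.906 to 1.24), and Ptprb, the phosphatase that acts on TEK and a gene of the endothelial gate, at 0.336 (0.184 to 0.583), were measured. Of 22 endothelial response genes, 8 were measured in adipocyte nuclei and 3 were at least 1.5-fold lower, against 7.49% of all genes. They were Pecam1 at 0.338 (0.181 to 0.597), Ets1 at 0.619 (0.336 to 1.10) and Tcf4 at 0.623 (0.537 to 0.721). Pecam1 belongs to the endothelial marker list, which went from 278 to 144 CPM in that gate, and the part of such barcodes in the other ratios was not tested.

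In endothelial barcodes 11 of the 22 response genes were measured, with a median log2 ratio of 0.06. Of these, 3 passed 1.5-fold in the higher and 3 in the lower direction, against 11.6% and 14.0% of all genes. The higher ones were the transcription factor Mecom at 1.84 (1.36 to 2.45), the adhesion gene Pecam1 at 1.56 (1.13 to 2.11) and Ets1 at 1.53 (0.915 to 2.47). The lower ones were Gpihbp1, which holds lipoprotein lipase on capillaries, at 0.599 (0.301 to 1.08), the ephrin Efnb2 at 0.623 (0.241 to 1.35) and the fatty acid carrier Fabp4 at 0.662 (0.580 to 0.752). Mecom and Pecam1 belong to the endothelial marker list, which went from 3637 to 4904 CPM in this class. In that list Erg, Emcn and Tie1 had ratios of 0.877, 0.965 and 0.944, and Shank3 was at 782 and 892 CPM. TMM scaling, which lowered the Flt1 ratio here from 0.983 to 0.742, was not applied to the response genes. The part of marker content or scaling in their ratios was not tested. Nrp2 was at 0.800 (0.434 to 1.38) and Tie1, the partner of TEK, at 0.944 (0.468 to 1.74). Pdgfb, the signal that draws mural cells, was at 299 and 157 CPM, a ratio of 0.526 (0.187 to 1.20), and was the 1 of 3 measured angiogenic factors past 1.5-fold. Of the oxygen and coactivator regulators, 2 were measured there, Esrrg, itself in the adipocyte marker list, at 1.67 (0.990 to 2.70) and Epas1 at 0.959 (0.517 to 1.66). Flt4, the VEGF-C receptor, had 9 and 2 UMIs in endothelial barcodes and 0 and 5 in adipocyte nuclei, and Hif1a had 15 UMIs and 1 in endothelial barcodes, too few to compare.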

How the data were processed

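Single-nucleus RNA was counted in 1 TN and 1 1cyc library. The deposited values are raw UMI counts per gene and barcode, aligned to mm10 and counted by the authors. The counter was Cell Ranger, version 3 per the submitters' processing notes and 3.1.0 per the file headers. The annotation, and how introns and strand were treated, is not given in the sources used here and can change the level of genes with long introns or antisense neighbours. Gene positions came from GENCODE M21, which held 30934 of 31053 identifiers. Promoters came from RefSeq (GRCm38.p6), which matched 8 of 10 members and had no entry for Angpt1 and Angpt2.

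UMIs were summed over the barcodes of a class and scaled to CPM. Levels have exact Poisson, ratios exact conditional binomial and shares exact Clopper-Pearson intervals at 95%, which cover counting error only. A library at 0 was set to a floor of 3 counts in a ratio. With 1 library per condition no test was run, and genes were called by ratio alone, at 1.5-fold between libraries and 2-fold between classes. All 10 members were named. From the 4 pathway lists, genes with at least 50 UMIs and 1.5-fold were named, with Hif1a, Epas1, Flt4, Nrp2 and Tie1 whatever their value. The other 5 measured oxygen and coactivator regulators were added after their values were seen. The 5 genes most like Vegfa, Angpt1, Flt1 and Kdr were named. Members, gates, lists and alternatives were chosen with earlier results of these data known, and these were added after the data were seen: leaving out haemoglobin-rich barcodes in either class, the ranges of mitochondrial share, marker levels with and without barcodes in both gates, and class ratios, subsets and shares without barcodes in another gate. Scrublet called 10 of 2551 TN and 6 of 4321 1cyc barcodes and 1 of 25 and 0 of 7 barcodes in both gates, too few to count as a doublet filter, so doublets were not removed and barcodes in another gate were left out as an alternative. Interval coverage was tested on simulated Poisson counts only, the distribution that the intervals assume, so the test cannot speak to spread between nuclei or mice. Its first version, with 1 draw, fell short of its limit, and the mean over many draws was used instead. Software was Python 3.11.15, numpy 2.4.6, scipy 1.17.1, pandas 2.3.3, scanpy 1.11.5, matplotlib 3.10.9 and, for TMM scaling alone, edgeR 4.0.16 in R 4.3.3.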

Additional observations from a re-analysis of the deposited data

Results flagged for a closer look

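Barcodes that passed the adipocyte marker gate but had 5% mitochondrial UMIs or more were outside the adipocyte nuclei, and some of them held more of a ligand in 1cyc than in TN. Vegfa in those of 5 to 20% was at 1153 CPM of the non-mitochondrial UMIs (1019 to 1299) in 583 1cyc barcodes and 722 CPM (654 to 795) in 783 TN barcodes. In those of 20% or more it was at 1364 CPM (1239 to 1498) in 1054 1cyc barcodes and 252 CPM (115 to 478) in 33 TN barcodes. Angpt1 in the latter was at 715 CPM (625 to 813) in 1cyc and 364 CPM (194 to 623, 13 UMIs) in TN, the opposite direction to that in adipocyte nuclei. In the barcodes of 5 to 20% Angpt1 kept the direction of the nuclei, at 793 CPM in 1cyc and 1153 CPM in TN.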

How the results depend on the processing

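In adipocyte nuclei the Vegfa ratio lay between 1.77 and 1.97 and that of Angpt1 between 0.788 and 0.886 over 18 alternatives, which changed the mitochondrial limit, the gate, the scaling, the treatment of barcodes in other gates, depth or haemoglobin, or left out Scrublet calls. Their direction held in all 18, and the Angpt1 interval excluded 1 in 17. Vegfb ranged from 0.682 to 1.08. The bound for Vegfc was at most 0.456 with a 2% mitochondrial limit, 0.338 without Pparg in the gate, 0.428 without barcodes in another gate and 0.687 after thinning, each from fewer TN UMIs. Flt1 in adipocyte nuclei was at 1.52 (0.325 to 9.39, from 3 and 6 UMIs), 1.07 (0.529 to 2.15) and 1.24 (0.520 to 2.96) under the first 3 of these settings. All 3 intervals include no difference. In endothelial barcodes a 5% mitochondrial limit gave 1.10 for Nrp1 and 0.424 for Tek, from 46 and 16 barcodes. Thinning to 300 UMIs gave 0.686 for Flt1 and 0.387 for Kdr, and TMM scaling 0.742 for Flt1. TMM moved the median log2 ratio of genes from 0.02 to -0.39 in endothelial barcodes and from 0.09 to -0.01 in adipocyte nuclei. The causes were not tested. Counts of genes past 1.5-fold depended on the UMI minimum. In adipocyte nuclei 312 higher and 182 lower became 633 and 423 at 50 UMIs and 1950 and 1418 at 10 UMIs. In endothelial barcodes 512 and 643 became 105 and 127 at 50 UMIs and 1133 and 1413 at 10 UMIs. No paired analysis was possible because each condition was 1 library, and for the same reason no replicate could be left out. Depth limits the endothelial and smaller classes most, with 38129 UMIs in 1cyc endothelial barcodes.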
